A study of Homo sapiens with 21 samples.

Results

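Protocadherins are cell-surface adhesion proteins of the cadherin superfamily, and 29 of their genes were followed here among the 18374 genes that the arrays measured through a probe set with a single gene symbol. A gene was included when its symbol begins with PCDH and is not an antisense transcript; each of the 29 had 1 probe set. The cells were U-87MG, an established human glioblastoma line, measured on 21 Affymetrix gene arrays. PK7, PK19 and PK25 are clones that stably carry parkin, a ubiquitin ligase best known for its loss in inherited Parkinson's disease. V8, V17 and V22 are clones of the same line that carry the empty vector. Each group is therefore a line grown from selected cells, and the labels do not say whether the 3 arrays of a clone came from separate cultures, so p-values here reflect only how the arrays of a clone vary, which may be technical.

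The array names fall into 2 series, an assumption read from their prefix: PK7, PK19, PK25 and V22 sets 4 to 6 in the second, V8, V17 and V22 sets 1 to 3 in the first. Each clone was set against V22 of its own series, and all differences are log2 values, clone minus V22, in which 1 unit is a 2-fold difference. A gene was called when limma's test, adjusted by Benjamini-Hochberg across the 26947 probe sets of the table, gave p under 0.05 and the difference was at least 2-fold. The transcript level of parkin itself is not reported.

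The clustered protocadherins lie in tandem on chromosome 5 as the alpha, beta and gamma arrays. In neurons each cell is known to use a small, partly random choice of them, so that neighbouring cells carry different surface combinations. Each beta gene is a single exon behind its own promoter, and the choice of promoter is known to involve DNA methylation, the insulator protein CTCF and cohesin. The other protocadherins are scattered over the genome and act in cell sorting, axon growth and synapse formation.

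The clustered members measured here were 18 genes, all of the beta array on chromosome 5. They comprised 16 coding genes and the pseudogenes PCDHB17P and PCDHB18P. The alpha genes shared 1 probe set with 15 symbols, which the rule leaves out; its log2 intensity was 4.83 to 5.27 over all arrays. No probe set with 1 gamma symbol was used here. The remaining 11 members were PCDH1, PCDH7, PCDH8, PCDH9, PCDH10, PCDH12, PCDH15, PCDH17, PCDH18, PCDH19 and PCDH20. In their mean over all arrays 22 of the 29 members, 15 of them clustered, were dimmer than the median probe set (log2 6.26). The 5 brightest were PCDHB16, PCDH7, PCDH10, PCDHB14 and PCDHB9. The beta genes are close paralogs, and hybridisation of one gene's transcript to another's probes was not tested.

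The promoters of the beta genes show what these genes share in sequence. RefSeq (GRCh38.p14) gave a promoter window, 250 bases before to 50 after the gene start, for 14 of the clustered members. The 9-base word GGTGGCGCT was chosen as the word common to most of them. It occurred on the gene's strand in 13 of the 14 windows (92.9%), with its first base at positions -84 to -2 from the gene start, and was missing from PCDHB1. Searched on both strands, it occurred in 176 of 35116 promoter windows of all genes (0.501%), in 0 of 13 alpha windows, 0 of 25 gamma windows and 0 of 10 windows of the other members. The word ends in CGCT, which is known as the core of the conserved element of clustered protocadherin promoters. A match is a description and not a shown binding site.

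The windows of PCDHB2, the gene with the largest difference in both PK7 and PK19, and of PCDHB1, the window without the word, are shown whole at chr5:141094365-141094664 and chr5:141051124-141051423, both on the plus strand. Capitals mark the word.
PCDHB2: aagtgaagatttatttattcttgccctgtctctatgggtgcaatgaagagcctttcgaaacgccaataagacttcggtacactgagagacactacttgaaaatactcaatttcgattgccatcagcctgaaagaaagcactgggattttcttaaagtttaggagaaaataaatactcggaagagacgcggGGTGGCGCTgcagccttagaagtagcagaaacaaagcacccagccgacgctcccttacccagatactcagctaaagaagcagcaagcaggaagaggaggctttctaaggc
PCDHB1: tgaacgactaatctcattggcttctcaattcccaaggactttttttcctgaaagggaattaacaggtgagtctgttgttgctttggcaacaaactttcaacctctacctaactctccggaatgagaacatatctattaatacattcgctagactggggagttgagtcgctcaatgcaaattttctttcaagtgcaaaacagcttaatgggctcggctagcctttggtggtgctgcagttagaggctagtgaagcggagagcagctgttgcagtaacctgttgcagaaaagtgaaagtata

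PCDHB8 and PCDHB13 were both called in PK19, and in PK7 both calls were lost when the array of set 2 alone was left out. This was not particular to the pair, since PCDHB14 lost its PK7 call there too. PCDHB8 then still passed the p threshold, while PCDHB13 did not. The windows of PCDHB8 and PCDHB13 are near copies of each other. They are shown whole from chr5:141177540-141177839 and chr5:141213669-141213968 on the plus strand, with the word in capitals. Aligned on the word without gaps, 243 of 259 bases were identical (93.8%), whereas the other 77 pairs of windows with the word were 28.2% to 44.2% identical, with a median of 34.2%.
PCDHB8: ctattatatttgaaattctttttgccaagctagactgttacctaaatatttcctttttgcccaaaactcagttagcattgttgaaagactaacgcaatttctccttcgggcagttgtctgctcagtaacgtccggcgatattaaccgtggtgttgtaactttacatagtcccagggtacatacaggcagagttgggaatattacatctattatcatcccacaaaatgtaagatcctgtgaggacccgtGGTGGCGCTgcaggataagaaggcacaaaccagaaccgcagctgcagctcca
PCDHB13: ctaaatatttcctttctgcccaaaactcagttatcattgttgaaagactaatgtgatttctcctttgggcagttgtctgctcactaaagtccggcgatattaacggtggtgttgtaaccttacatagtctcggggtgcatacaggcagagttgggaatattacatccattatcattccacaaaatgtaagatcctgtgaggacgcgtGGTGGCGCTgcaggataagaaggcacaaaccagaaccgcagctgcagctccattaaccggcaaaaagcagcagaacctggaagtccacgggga

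For the other called beta genes with a window, the word is shown with 20 bases on each side, to show how far the likeness reaches beyond it. These 49 bases lie on the plus strand at chr5:141100384-141100432 (PCDHB3), chr5:141121714-141121762 (PCDHB4), chr5:141135170-141135218 (PCDHB5), chr5:141182301-141182349 (PCDHB16), chr5:141192290-141192338 (PCDHB10), chr5:141223254-141223302 (PCDHB14) and chr5:141245305-141245353 (PCDHB15).
PCDHB3: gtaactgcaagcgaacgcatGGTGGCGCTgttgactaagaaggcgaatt
PCDHB4: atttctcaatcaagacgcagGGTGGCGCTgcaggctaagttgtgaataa
PCDHB5: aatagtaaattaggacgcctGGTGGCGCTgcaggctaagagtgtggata
PCDHB16: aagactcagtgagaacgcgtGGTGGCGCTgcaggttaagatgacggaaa
PCDHB10: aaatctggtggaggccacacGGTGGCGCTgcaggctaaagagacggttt
PCDHB14: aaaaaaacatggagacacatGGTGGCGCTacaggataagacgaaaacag
PCDHB15: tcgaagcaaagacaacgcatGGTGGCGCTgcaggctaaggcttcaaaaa

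Of the 13 genes with the word, 10 were called in at least 1 clone and 3 (PCDHB7, PCDHB9 and PCDHB12) in none, beside 12 of all 18 clustered genes and 4.71% of all probe sets. The called genes PCDHB6 and PCDHB17P, and PCDHB11 and PCDHB18P, had no window and could not be searched. PCDHB1, called in no clone, was the only clustered gene searched that lacked the word. The word was present in genes called higher, such as PCDHB2, and in PCDHB5, which was called lower in V8.

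Array medians lay between 6.21 and 6.37 (log2), and no array has a counted depth. Markers of mesenchymal glioma lines were bright on every array (vimentin, VIM, 12.46 to 12.96, and CD44, 11.21 to 12.59). Of 10 glial and neural stem markers, 7 were dimmer than the median probe set, among them S100B (3.80 to 4.49) and AQP4 (3.33 to 3.95). SLC1A3 (7.05 to 9.17), NES (6.97 to 8.11) and GFAP (6.02 to 7.03) were not. The PK7 array of set 2 stood apart in the clustered genes: it was the highest of the 3 PK7 arrays in 16 of 18, with a median excess of 1.00 over the mean of the other arrays, against 0.016 over all probe sets. Smaller shifts of the same kind were seen on the PK25 array of set 2 (highest in 13 of 18, median excess 0.38) and V22 set 5 (14 of 18, 0.23). In the first series V17 set 3 (12 of 18, 0.19) and V22 set 3 (11 of 18, 0.23) were also high. Over all probe sets their median excess was 0.051 and -0.00014. Results for PK7 are therefore given with and without the PK7 array of set 2. In bulk RNA of a clone, fewer cells that use a gene and less RNA per cell cannot be told apart.

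PK19 carried the broadest difference in the beta array. Of the 29 members 10 were called, all of them clustered and all higher in PK19 than in V22, against 2.89% of all probe sets called and 1.62% called higher. Among the 18 clustered genes 16 were higher than in V22, and their median difference was 1.16, beside -0.03 in the 11 other members and -0.00045 over all probe sets. The plot of differences along the cluster shows called genes from PCDHB2, near the start of the array, to PCDHB15, its last coding gene.

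**Figure D1:**
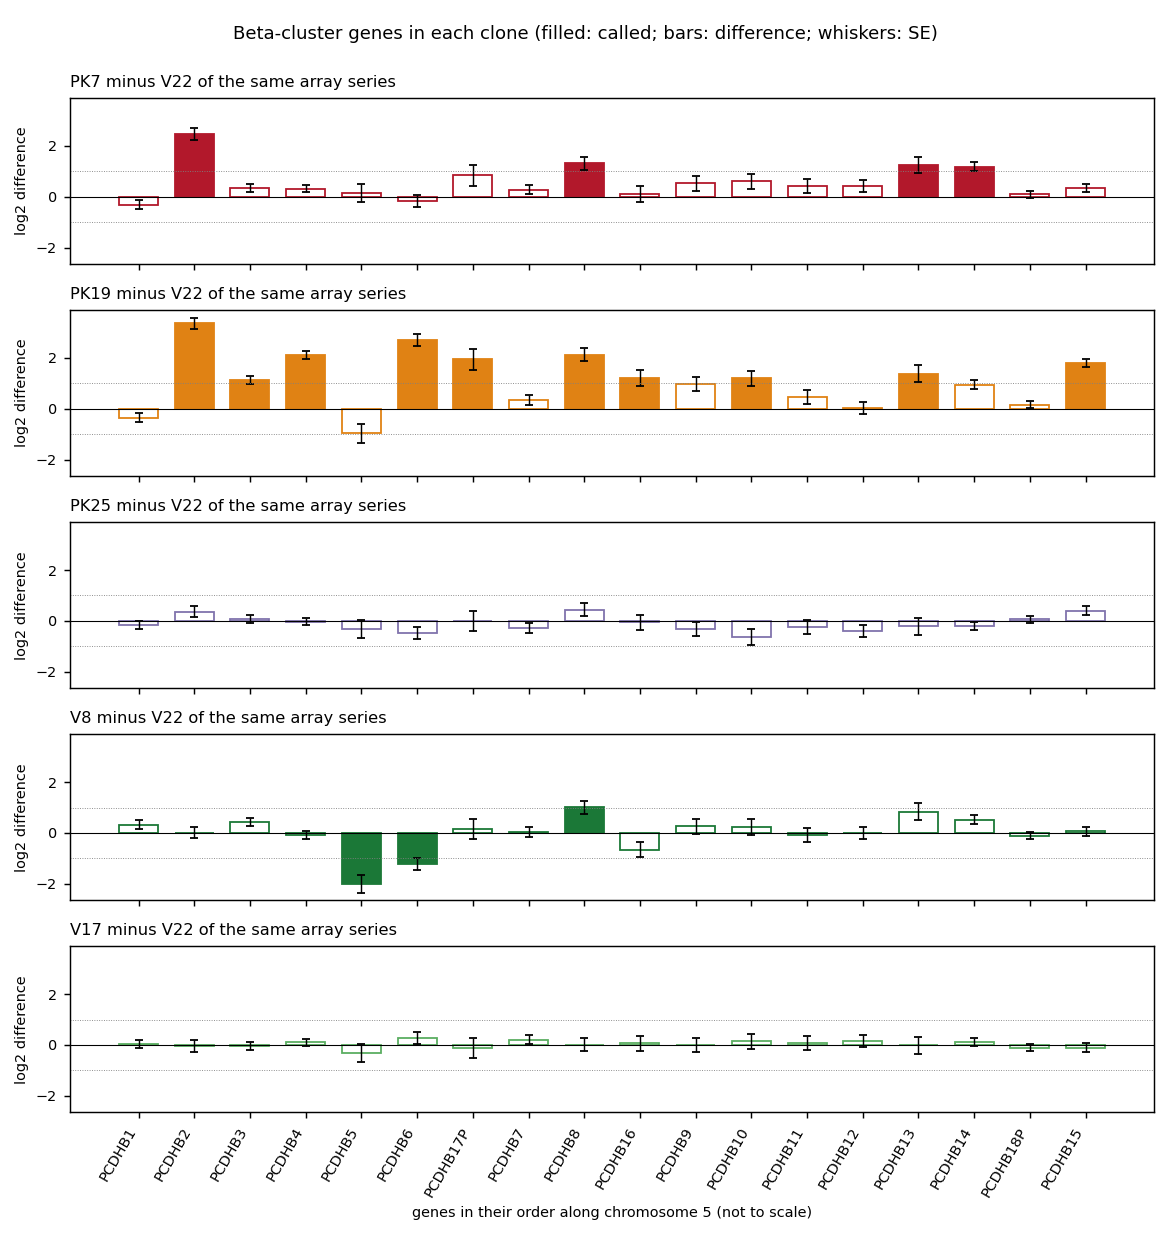
Log2 difference from V22 of the same array series for the 18 beta-cluster genes in their order along chromosome 5, 1 panel per clone, with whiskers for the SE and filled bars for called genes. PK19 has 10 filled bars, PK7 has 4, PK25 and V17 have 0, and V8 has 3, of which PCDHB5 and PCDHB6 point down.

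PCDHB2, a beta protocadherin with its own promoter near the start of the array, differed most. Its log2 intensity was 8.62, 8.34 and 8.41 on the PK19 arrays, against 4.98, 5.27 and 5.02 on the V22 arrays of the second series. Every PK19 array lay above every V22 array, and the difference was 3.37 (SE 0.22, 10.3-fold, limma adjusted p = 1.45e-09).

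PCDHB6 came next. It measured 7.88, 7.64 and 8.16 in PK19, against 4.90, 5.31 and 5.31 in V22, a difference of 2.72 (SE 0.24, 6.57-fold, limma adjusted p = 1.04e-07). PCDHB4 was dim in V22, below the lower quartile of all probe sets (4.60). It measured 4.61, 4.87 and 5.21 in PK19, against 2.71, 2.93 and 2.67 in V22, and the arrays did not overlap (difference 2.13, SE 0.15, limma adjusted p = 3.15e-09). PCDHB4, PCDHB2 and PCDHB6 were the called genes with the smallest p in PK19.

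PCDHB8 was as far apart as PCDHB4, with 5.79, 5.68 and 5.90 in PK19, against 3.65, 3.80 and 3.54 in V22 (difference 2.13, SE 0.26). Its promoter near copy PCDHB13 measured 6.40, 6.56 and 6.75 in PK19, against 4.83, 5.66 and 5.05 in V22 (1.39, SE 0.33). PCDHB15, the last coding beta gene, measured 6.46, 6.20 and 6.29 in PK19, against 4.42, 4.70 and 4.42 in V22 (1.80, SE 0.17). In all these genes the lowest PK19 array was above the highest V22 array.

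The pseudogene PCDHB17P, which has lost its reading frame, was also called. It measured 7.00, 6.68 and 6.77 in PK19, against 5.10, 4.62 and 4.90 in V22 (difference 1.94, SE 0.40, limma adjusted p = 0.00164). PCDHB3 measured 5.30, 5.29 and 4.91 in PK19, against 4.09, 3.82 and 4.21 in V22 (1.13, SE 0.16). Both sets of arrays were apart.

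PCDHB16, the brightest member, measured 8.73, 8.87 and 8.77 in PK19, against 7.61, 7.66 and 7.46 in V22 (difference 1.21, SE 0.30, limma adjusted p = 0.00818). PCDHB10 measured 6.54, 7.20 and 6.85 in PK19, against 5.49, 6.06 and 5.45 in V22 (1.20, SE 0.30). Without the PK19 array of set 2 the PCDHB10 difference was 1.03 (limma adjusted p = 0.0556) and the call was lost; over all alternatives the adjusted p was 7.43e-05 to 0.0556.

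PCDHB9 and PCDHB14 passed the p threshold just short of 2-fold. PCDHB9 measured 7.73, 7.88 and 7.55 in PK19, against 6.40, 6.93 and 6.90 in V22 (0.98, SE 0.29, limma adjusted p = 0.0244). PCDHB14 measured 7.49, 7.51 and 7.57 in PK19, against 6.52, 6.78 and 6.43 in V22 (0.94, SE 0.17, limma adjusted p = 0.000531). Both were called when V22 set 5 was left out, at 1.07 and 1.04, and PCDHB9 also without V22 set 6 or PK19 set 3 (1.06 each).

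The remaining 6 clustered genes did not pass in PK19. PCDHB5 measured 5.20, 5.31 and 4.33 in PK19, against 5.86, 6.09 and 5.81 in V22 (-0.97, SE 0.36, limma adjusted p = 0.083). PCDHB5 was the lowest difference of the array in PK19, and its arrays did not overlap those of V22. PCDHB1, PCDHB7, PCDHB11, PCDHB12 and PCDHB18P lay between -0.35 and 0.48.

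**Figure D2:**
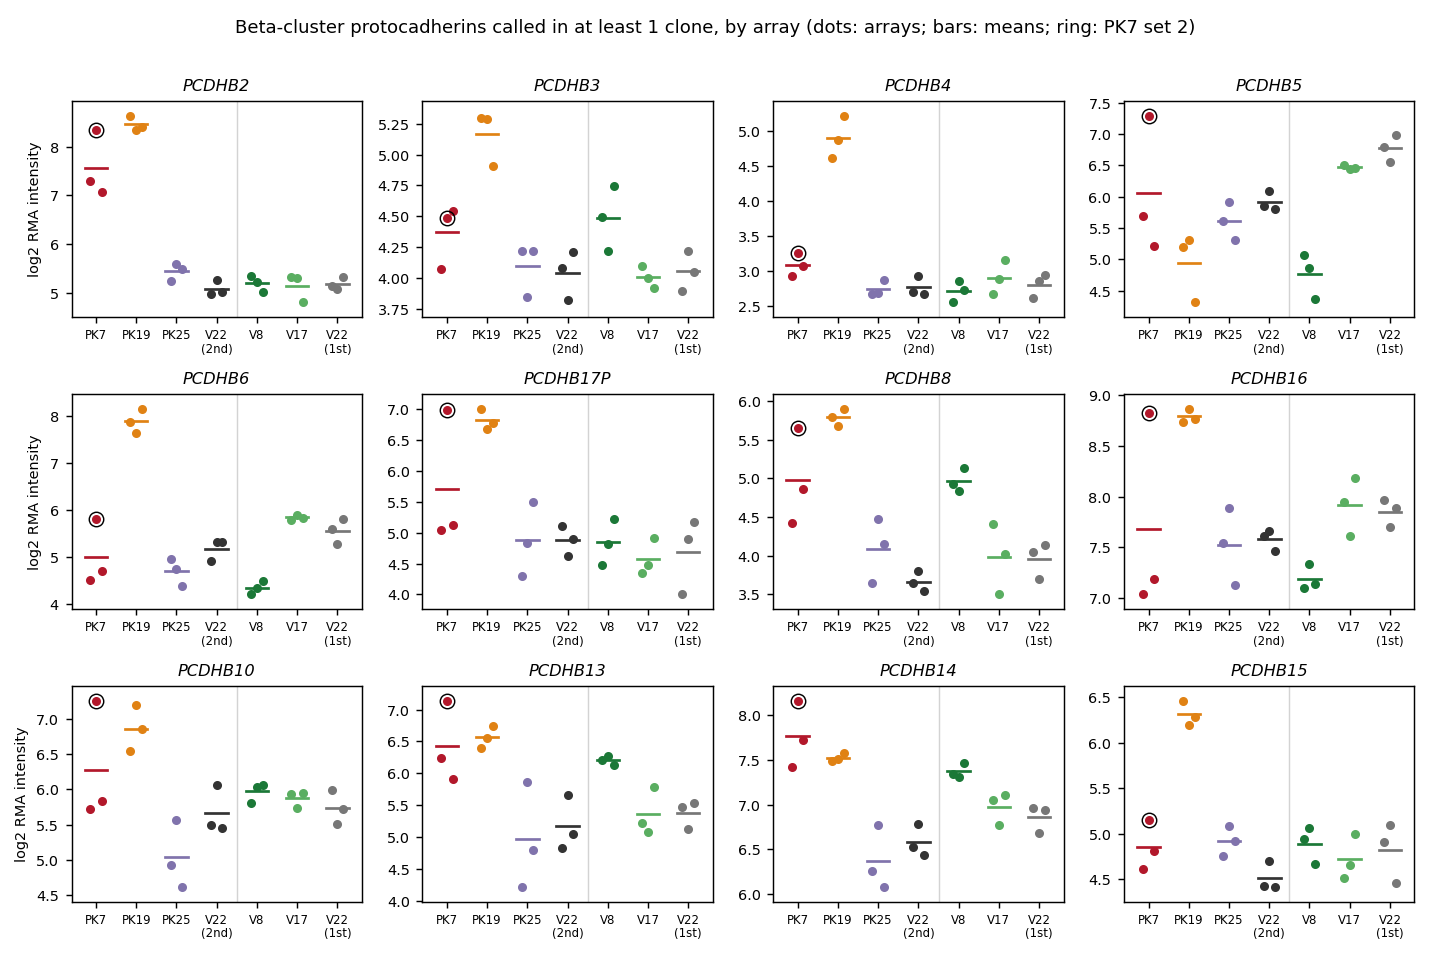
Log2 RMA intensity of the 12 beta-cluster genes called in at least 1 clone, with a dot per array, a bar at each mean and a ring around the PK7 array of set 2; the second series (PK7, PK19, PK25, V22) is left of the grey line and the first (V8, V17, V22) right of it. The ringed array lies above the other PK7 arrays in every panel except PCDHB3, where set 3 is higher.

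PK7 differed in fewer clustered genes. Of the 29 members 5 were called, 4 clustered genes higher and PCDH10 lower, against 2.30% of all probe sets (1.44% higher and 0.865% lower). The clustered median was 0.38, with 16 of 18 genes higher than in V22, beside 0.10 in the other members.

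PCDHB2 measured 7.29, 8.33 and 7.07 in PK7, against 4.98, 5.27 and 5.02 in V22 (difference 2.48, SE 0.22, limma adjusted p = 1.9e-07). All 3 PK7 arrays were above all V22 arrays, and without set 2 the difference was 2.09 (SE 0.16). 

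PCDHB8 measured 4.43, 5.65 and 4.87 in PK7, against 3.65, 3.80 and 3.54 in V22 (1.32, SE 0.26, limma adjusted p = 0.000997). PCDHB13 measured 6.24, 7.13 and 5.92 in PK7, against 4.83, 5.66 and 5.05 in V22 (1.25, SE 0.33, limma adjusted p = 0.0121). PCDHB14 measured 7.42, 8.16 and 7.72 in PK7, against 6.52, 6.78 and 6.43 in V22 (1.18, SE 0.17, limma adjusted p = 5.76e-05). In each of the 3 genes the groups did not overlap, but set 2 was the highest array. Without it, limma gave PCDHB8 0.98 (adjusted p = 0.00784), PCDHB14 0.99 (adjusted p = 0.000468) and PCDHB13 0.90 (adjusted p = 0.0958). None of these was then called, PCDHB8 and PCDHB14 for size alone. A further fit, chosen after seeing the data, also left out V22 set 5, the other arrays of set 2 and PK25 set 3. V22 set 5 was the highest V22 array of its series in these genes, so leaving it out raises their differences. They were then 1.05 in PCDHB8, 1.09 in PCDHB14 and 1.14 in PCDHB13, which does not decide whether the calls hold. PCDHB13 was also lost without V22 set 4 (1.08), and over all alternatives its adjusted p was 0.0025 to 0.0958.

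Without that array 2 of the 29 members were called in PK7, PCDHB2 and PCDH10, against 1.92% of all probe sets. The clustered median was then 0.11, with 12 of 18 genes higher. PCDHB17P shows how far 1 array reached: it measured 5.04, 6.97 and 5.12 in PK7, against 5.10, 4.62 and 4.90 in V22. Its difference was 0.84 with that array and 0.21 without it. The part of culture, RNA quality or hybridisation in the array of set 2 was not tested.

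The PK7 and PK19 comparisons use the same V22 arrays, so their calls are not independent. Side by side, PK7 and PK19 had differences of 2.48 and 3.37 in PCDHB2, 1.32 and 2.13 in PCDHB8, and 1.25 and 1.39 in PCDHB13. Without the PK7 array of set 2 the PK7 values of these genes were 2.09, 0.98 and 0.90. In PCDHB6 they had -0.17 and 2.72, and in PCDHB4 0.32 and 2.13.

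PK25, also a parkin clone, had 0 of 29 members called by limma, against 0.193% of all probe sets. An unadjusted limma p under 0.05 was found in 2 of 29 members and in 3055 of all 26947 probe sets. PCDHB2 measured 5.25, 5.61 and 5.50 in PK25, against 4.98, 5.27 and 5.02 in V22 (0.36, SE 0.22, limma adjusted p = 0.589). PCDHB6 measured 4.95, 4.74 and 4.37 in PK25, against 4.90, 5.31 and 5.31 in V22 (-0.49, SE 0.24, limma adjusted p = 0.469). The arrays of both genes overlapped. The clustered median was -0.19, with 6 of 18 genes higher than in V22, and the members ranged from -0.63 (PCDHB10) to 0.43 (PCDHB8). Without the PK25 array of set 2, the highest in most clustered genes, the clustered median was -0.32, PCDHB10 had -0.89 and 0 members were called.

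The vector clone V8 also differed from V22 in the beta array. In V8 3 of 29 members were called, all clustered, 1 higher and 2 lower, against 0.980% of all probe sets (0.568% higher and 0.412% lower). PCDHB5 measured 5.07, 4.87 and 4.36 in V8, against 6.79, 6.55 and 6.98 in V22 of the first series (-2.002, SE 0.36, limma adjusted p = 0.000996). PCDHB6 measured 4.20, 4.34 and 4.47 in V8, against 5.58, 5.28 and 5.80 in V22 (-1.22, SE 0.24, limma adjusted p = 0.00285). Both genes were lower on every V8 array.

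PCDHB8 was higher in V8, with 4.93, 4.84 and 5.13, against 4.05, 3.69 and 4.14 in V22 (1.01, SE 0.26, limma adjusted p = 0.0166). That call was lost without V8 set 3 (0.92) and without V22 set 2 (0.87). PCDHB13 and PCDHB14 did not pass but had no overlap with V22: 0.83 (limma adjusted p = 0.154) and 0.51 (limma adjusted p = 0.0777). The clustered median in V8 was 0.04.

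In V17 limma called 0 of 29 members, with 0 at an unadjusted p under 0.05, and 0% of all probe sets; 730 probe sets had an unadjusted p under 0.05. PCDHB2 measured 5.34, 5.31 and 4.83 in V17, against 5.15, 5.08 and 5.34 in V22. PCDHB6 measured 5.79, 5.89 and 5.83 in V17, against 5.58, 5.28 and 5.80 in V22. All members of V17 lay between -0.31 and 0.28 of V22.

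The same clone also differs a little between the array series. For V22 of the second series against V22 of the first, 0 of 29 members were called by limma, against 0.00371% of all probe sets. An unadjusted limma p under 0.05 was found in 3 of 29 members and in 2358 of all 26947 probe sets. Of the 29 members 25 were lower in the second series (median -0.14), against 14174 of all 26947 probe sets (median -0.0095). V22 of the second series is the reference for all parkin clones. PCDHB5 measured 5.86, 6.09 and 5.81 in the second series, against 6.79, 6.55 and 6.98 in the first (-0.86, SE 0.36, limma adjusted p = 0.506). The 2 sets of arrays did not overlap, and its levels are compared here only within a series or through V22.

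The parkin clones, which share 1 array series, were compared directly. By limma's F test 19 of 29 members differed among PK7, PK19 and PK25, against 23.6% of all probe sets. They comprised 14 of 18 clustered and 5 of 11 other genes. Without the PK7 array of set 2 the count was 17, with the share of all probe sets in that fit not given here.

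PK19 against PK25 gave 13 calls of 29, against 2.61% of all probe sets (1.71% higher and 0.894% lower): 12 clustered genes higher in PK19, and PCDH18 lower. The largest was PCDHB6, with 7.88, 7.64 and 8.16 in PK19, against 4.95, 4.74 and 4.37 in PK25 (3.21, SE 0.24, limma adjusted p = 1.29e-08). PCDHB2 followed at 3.00, PCDHB4 at 2.15 and PCDHB17P at 1.94. PCDHB9 and PCDHB14, short of 2-fold against V22, were called here at 1.31 and 1.15. Without the PK25 array of set 2, PCDHB3 (0.95) and PCDH18 (-0.77) were no longer called.

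PK7 against PK25 gave 5 calls, against 2.05% of all probe sets (1.55% higher and 0.501% lower). With no minimum fold 8 members passed, against 13.9%. PCDHB2 (2.11), PCDHB13 (1.46), PCDHB14 (1.39) and PCDHB10 (1.23) were higher in PK7, and PCDH10 (-1.47) was lower. PCDHB10 was lost without the PK7 array of set 2 (0.74, limma adjusted p = 0.0501). Without the PK25 array of set 2 the count was 8, with PCDHB8, PCDHB9 and PCDHB12 added. The share of all probe sets called in that fit is not given here.

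PK7 against PK19 gave 5 calls, against 2.45% of all probe sets (1.38% higher and 1.07% lower). With no minimum fold 13 members passed, against 15.8%. PCDHB6 (-2.89), PCDHB4 (-1.81), PCDHB15 (-1.46) and PCDHB16 (-1.11) were lower in PK7, and PCDHB5 (1.11) was higher. PCDHB5 measured 5.69, 7.28 and 5.21 in PK7, against 5.20, 5.31 and 4.33 in PK19. The groups overlapped, and without set 2 its difference was 0.50. Then 8 members were called, among them PCDHB2 (-1.27), PCDHB8 (-1.14), PCDHB17P (-1.74) and PCDHB10 (-1.08), all lower in PK7. The share of all probe sets called without set 2 is not given here.

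Outside the clusters the differences were fewer and of both signs. PCDH10, a delta protocadherin that binds the WAVE actin regulators and is often silenced in tumours, was the 1 gene of the 11 called against V22. It measured 6.01, 6.32 and 6.18 in PK7, against 7.94, 7.49 and 7.99 in V22 (-1.63, SE 0.18, limma adjusted p = 2.75e-06). No PK7 array reached the lowest V22 array, and without set 2 the difference was -1.71.

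PCDH10 was lower in PK19 by less than 2-fold, with 6.80, 7.00 and 6.85 in PK19, against the same V22 arrays (-0.92, SE 0.18, limma adjusted p = 0.0012). Leaving out V22 set 5 brought it past 2-fold (-1.07). In PK25 it measured 7.82, 7.45 and 7.64 (-0.17, limma adjusted p = 0.789). In V8 it measured 7.29, 6.79 and 7.39, against 7.74, 7.49 and 8.08 in V22 of the first series (-0.61, SE 0.18, limma adjusted p = 0.0435). PCDH10 thus passed the p threshold in PK7, PK19 and the vector clone V8.

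Only the p threshold was passed by 3 further genes of this class in PK19, where 14.0% of all probe sets passed it. PCDH7, a delta protocadherin and the second brightest member, measured 6.84, 6.89 and 6.59 in PK19, against 7.54, 7.41 and 7.45 in V22 (-0.69, SE 0.12, limma adjusted p = 0.000386). PCDH18 measured 5.51, 5.74 and 5.83 in PK19, against 6.37, 6.53 and 6.33 in V22 (-0.71, SE 0.22, limma adjusted p = 0.038). PCDH17, a delta protocadherin of synapses, measured 7.08, 7.19 and 7.06 in PK19, against 6.41, 6.34 and 6.44 in V22 (0.71, SE 0.12, limma adjusted p = 0.000164). Each lay wholly on its side of V22.

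PCDH7 also passed in V8, where 8.00% of all probe sets passed with no minimum fold, with 7.23, 6.96 and 7.37, against 7.61, 7.50 and 7.82 in V22 (-0.46, SE 0.12, limma adjusted p = 0.0232). PCDH18 measured 5.84, 5.65 and 6.12 in V8, against 6.45, 6.39 and 6.86 in V22 (-0.70, limma adjusted p = 0.0647). Among the parkin clones the F test passed for PCDH7, PCDH10, PCDH17, PCDH18 and PCDH19, the last a gene of an X-linked epilepsy. PCDH1, PCDH8, PCDH9, PCDH12 (known from endothelium), PCDH15 (part of the hair-cell tip link) and PCDH20 did not pass against V22 in any clone.

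**Figure D3:**
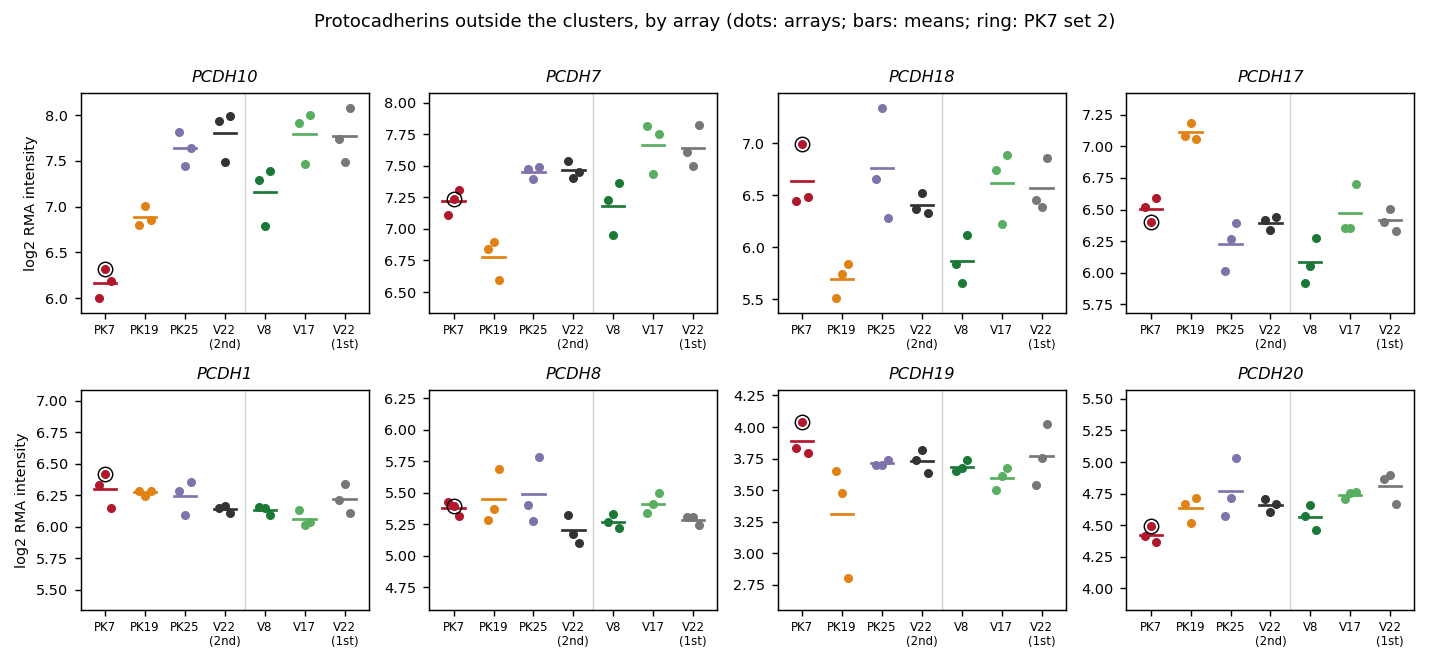
Log2 RMA intensity of 8 protocadherins outside the clusters, with a dot per array, a bar at each mean and a ring around the PK7 array of set 2; the second series is left of the grey line and the first right of it. PCDH10 is lowest in PK7, with PK19 and V8 between PK7 and the other groups.

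With the clone as the replicate, 3 parkin against 3 vector clones, limma called 0 of 29 members, against 0.00371% of all probe sets. An unadjusted limma p under 0.05 was found in 5 of 29 members and in 3787 of all 26947 probe sets. The smallest adjusted limma p of a member was 0.306. Against V22 of the first series, 0 of 26947 probe sets were called in V17 and 264 in V8. V17 and V22 may thus not be distinct replicates, and n = 3 with its small SD may overstate replication of the vector clones. PCDHB2 averaged 7.16 ± 1.54 in the parkin clones and 5.08 ± 0.024 in the vector clones (SD, n = 3 each; difference 2.08, SE 0.70, limma adjusted p = 0.319). By clone, it averaged 7.57 in PK7, 8.46 in PK19 and 5.45 in PK25, against 5.10 in V8, 5.06 in V17 and 5.09 in V22. The V8 and V17 values include the shift of the first series through V22, and unshifted they were 5.20 and 5.16. The 3 parkin means lay above the 3 vector means, but the spread among them was most of the difference.

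Clone means were apart in 7 of 29 members, close to the 23.1% of all probe sets (12.3% higher and 10.9% lower). After the shift through V22, PCDHB2, PCDHB15, PCDHB18P, PCDH1, PCDH8 and PCDH12 were higher in all parkin clones, and PCDHB1 lower. Without the shift only PCDHB2 and PCDH1 stayed apart. Unshifted PCDHB1 was 3.63 in V17 and 3.59 in V22 of the first series, below the 3.75 of PK19. Apart from PCDHB2 (2.08) and PCDHB15 (0.86), these differences were between -0.40 and 0.21. Leaving out PK25, PCDHB2 alone of the members passed, at 2.93 (SE 0.26, limma adjusted p = 0.0407). PK25 had the parkin mean of PCDHB2 nearest the vector means (5.45), so that fit dropped the clone with the smallest difference. The share of all probe sets that passed in that fit is not given here. Under the other alternatives the smallest adjusted limma p of any member was 0.263 to 0.721.

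Of 26 genes flanking the protocadherins, 25 were measured. In PK19 their median was 0.03 with 16 higher and 9 lower, and 1 was called, SPRY4 (-1.33), an inhibitor of growth-factor signalling. In PK7 the median was -0.19 with 4 higher and 21 lower, and SPRY4 (-2.22) and HBEGF (-1.39), an EGF-receptor ligand, were called lower, 2 of 25 beside 0.865% of all probe sets called lower. None was called in PK25, V8 or V17. SLC25A2 and TAF7, which lie directly between the beta and gamma arrays, had differences of -0.19 and -0.12 in PK7, -0.21 and 0.33 in PK19, and -0.10 and -0.03 in PK25.

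Other cadherins gave few calls. None of the 18 classical and type II cadherins measured was called in any clone. Of 20 distant cadherins, FAT2 was called in PK7 (1.09) and FAT1 in PK19 (-1.13). Of 17 measured cytoplasmic partners, CYFIP2, a subunit of the WAVE complex, was called in PK19 (1.20) and in PK25 (-1.17), in opposite directions.

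**Figure D4:**
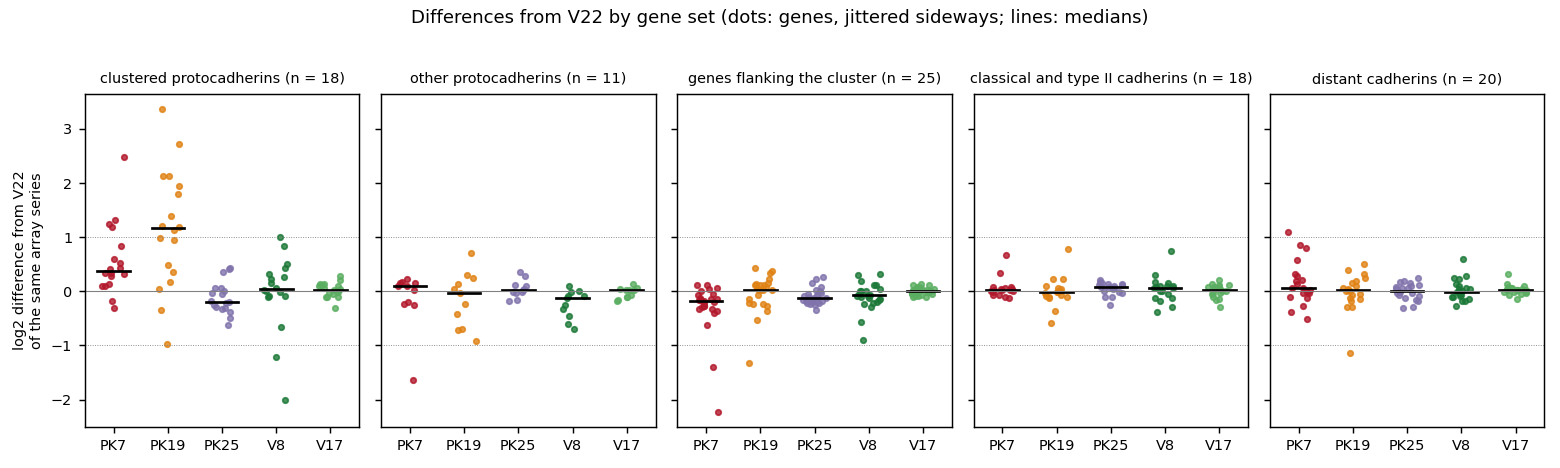
Log2 difference from V22 of the same array series for 5 gene sets, with a dot per gene (spread sideways at random) and a line at the median, for PK7, PK19, PK25, V8 and V17. The clustered protocadherins of PK19 have a median of 1.16, whereas the medians of the flanking genes and of the other cadherin sets lie between -0.19 and 0.08 in every clone.

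Cohesin, CTCF and silencing factors are known to act on clustered promoters. Of 19 measured genes for them, 16 had lower values than V22 in PK7 (median -0.26), 14 in PK19 (-0.20) and 16 in PK25 (-0.07). V8 had 11 (-0.03) and V17 had 3 (0.03), with V17 differences of only -0.05 to 0.09. Of all 26947 probe sets, 13343 were lower in PK7, 13504 in PK19, 12198 in PK25, 13675 in V8 and 11653 in V17. The parkin comparisons share their V22 arrays. The mean of those arrays over the 19 genes was 8.92 to 8.95, against 8.82 to 8.88 in V22 of the first series. TRIM28, a corepressor that recruits the histone methyltransferase SETDB1, was the 1 called, in PK7 (-1.004, SE 0.11, limma adjusted p = 2.05e-06). In PK19 TRIM28 had -0.48 (limma adjusted p = 0.00391) and EHMT2, another histone methyltransferase, -0.80 (limma adjusted p = 9.53e-07). CTCF had -0.04 in PK7 and -0.11 in PK19. The part of these factors in the protocadherin differences was not tested.

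The mean log2 level of 9 measured neuronal markers was 5.89 to 6.01 over the PK7 arrays, 5.99 to 6.06 in PK19 and 5.70 to 5.76 in PK25, against 5.57 to 5.65 in V22 of the second series. Of the 9, 7 were dimmer than the median probe set, ELAVL4, DCX and STMN2 among them. The median difference from V22 was 0.18 in PK7 (7 of 9 higher), 0.13 in PK19 (6 of 9) and 0.15 in PK25 (8 of 9). MAP2, a microtubule protein of dendrites, was called in PK7 (1.71) and PK19 (2.04), and SNAP25, a synaptic fusion protein, in PK19 (1.33). Their part in the result was not tested. No marker of blood or epithelium was called in any clone. Among endothelial markers, the receptor KDR was called lower in PK7 (-2.26), PK19 (-2.65), PK25 (-1.77) and V8 (-1.05). Among glial markers, SOX2 was called lower in PK19 (-1.09) and the glutamate transporter SLC1A3 in PK25 (-1.12) and V8 (-1.27). Of the mesenchymal markers, CHI3L1 was called higher in PK7 (3.83).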

How the data were processed

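U-87MG clones were profiled on 21 Affymetrix gene arrays. The authors deposited RMA intensity on a linear scale (RMA per the submitters' processing notes, version not given in the sources used here), which was turned into log2 values. Joint or separate normalization of the arrays is not given in the sources used here. Gene symbols came from the platform annotation: 19305 of 26947 probe sets had 1 symbol, 1750 several, and 5892 are unnamed here. The brightest probe set stood for a gene.

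limma 3.58.1 (lmFit, eBayes; R 4.3.3) was fitted to all 26947 probe sets on 21 arrays in 7 groups of clone and array series, without a filter. Benjamini-Hochberg adjustment ran over all probe sets. The same fit gave the comparisons among parkin clones. For 3 parkin against 3 vector clones, the first series was shifted per probe set by V22 of the second series minus V22 of the first, and clone means were fitted. The code was tested on simulated data. Arrays have no counted depth, so their number limits the precision.

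Every member could be named; values by array are given for members called against V22 in at least 1 clone and the 5 brightest, and from each other list up to 4 called genes. The members and lists were chosen with earlier results of these data known. Genes such as PCDH18, PCDH17, TRIM28 in PK19, EHMT2 and CTCF were named after their values were seen. Promoter words were searched in RefSeq windows (GRCh38.p14).

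Deviations of same-numbered arrays from their clone means correlated above 0.1 in every pair for V17 and V22 of the first series (0.126 to 0.216). The same held for PK7 and PK19 (0.151 to 0.323). Different-numbered arrays gave -0.141 to 0.0219 for V17 and V22. For PK7 and PK19 they gave -0.28 to 0.204, which overlaps the same-numbered range. The set numbers were taken to pair these clones, from the data and not from the labels. In the other comparisons not every same-numbered pair was above 0.1. Alternatives covered normalization, dim probe sets, the log scale, the variance model, the samples fitted, the V22 arrays used, the block, the minimum fold, and each array or clone left out.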

Additional observations from a re-analysis of the deposited data

Results flagged for a closer look

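Each result here was singled out because a member differed between 2 parkin clones by limma's test of that difference itself, with at least 2-fold. The differences are log2 values, and each gene is given once, for its largest.

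For PK19 minus PK25 they were 3.21 in PCDHB6, 3.00 in PCDHB2, 2.15 in PCDHB4, 1.94 in PCDHB17P, 1.83 in PCDHB10, 1.70 in PCDHB8, 1.601 in PCDHB13, 1.31 in PCDHB9, 1.27 in PCDHB16 and 1.07 in PCDHB3. PCDH18 ran the other way, at -1.06. For PK7 minus PK25, PCDHB14 had 1.39 and PCDH10 had -1.47. For PK7 minus PK19, PCDHB15 had -1.46 and PCDHB5 had 1.11.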

How the results depend on the processing

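Precision is limited by the number of arrays, which may be technical repeats, and of clones. Every member called against V22 kept its direction under every alternative run. With log2(value + 16), which compresses dim values, the members called were 3 in PK7, 1 in V8 and 3 for PK7 against PK19. With arrays of the same series only, PK7 against PK19 gave 3; the cause was not tested. With no minimum fold, PK19 gave 16, V8 5, PK7 against PK19 13 and PK7 against PK25 8, since size no longer counted. Leaving out 1 array at a time gave 2 to 5 in PK7 (2 without set 2), 9 to 13 in PK19, 0 in PK25 and V17, 2 to 3 in V8, 17 to 20 by the F test, 4 to 8 for PK7 against PK19 (8 without PK7 set 2), 4 to 8 for PK7 against PK25 (8 without PK25 set 2), 11 to 13 for PK19 against PK25 and 0 for V22 between series. Leaving out 1 clone gave 0 to 1 for parkin against vector (1 without PK25). Of the named differences from V22, 18 were called, and over the alternatives these were called 253 times and not called 15 times. The 12 that were not called stayed so 169 times and gained a call 11 times. The clone comparison does not carry the full error of the shift through V22.

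Set numbers were not taken to pair V8 with V22, PK7 with PK25 or PK19 with PK25. There the deviations of same-numbered arrays from their clone means did not all correlate above 0.1. They correlated at 0.0701 to 0.0848, -0.0917 to 0.19 and -0.0234 to 0.381. Different-numbered arrays of V8 and V22 gave -0.0880 to 0.0161, below the same-numbered range, so for V8 only the cut of 0.1 decided this. In the first series all same-numbered pairs, at 0.0591 or more, correlated above all different-numbered pairs, at 0.0533 or less, a hint from the data and not from the design. The set number as a replicate block gave 3 in V8, 0 in V17, 19 by the F test, and 5, 5 and 13 for PK7 against PK19, PK7 against PK25 and PK19 against PK25. It changed none of these counts, the members called in the comparisons among parkin clones were the same with and without it, and V22 of the second series shares no set number with the parkin clones. Chosen after seeing the data, leaving out all arrays of set 2, V22 set 5 and PK25 set 3 together gave 5 in PK7 and 12 in PK19, with the lone PK25 array assumed to vary like the other groups. Array weights, also chosen then, gave 5 and 14, and 24 by the F test. For array weights and for arrays left out, shares of all probe sets are not given here, except for PK7 against V22 without PK7 set 2 (1.92%). These counts therefore cannot be set against the array as a whole.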
